A study of Mus musculus with 125 samples.

Results

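The 8 genes described here encode carriers that move fuels, amino acids and taurine across the plasma membrane of brain endothelial cells: Slc2a1, Slc16a1, Slc7a5, Slc3a2, Slc7a1, Slc38a5, Slc38a3 and Slc6a6. They were chosen by name as the nutrient transporters of the blood-brain barrier, out of 27998 genes in the single-cell tables and 21900 protein-coding genes that could be placed on the genome, and all 8 were found in both. The study compared mouse endothelium between organs and ages. Open chromatin was measured by ATAC-seq, in which a transposase cuts accessible DNA, in 66 libraries of nuclei: 37 of endothelial nuclei and 29 of input nuclei, that is, nuclei of the whole organ. Single-cell RNA was measured in 5 libraries of brain cells enriched with beads against CD31, an endothelial surface protein.

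The endothelial ATAC-seq groups were brain (3 libraries), heart (4) and trunk (4) at E12, brain (3), retina (3), heart (2), kidney (2), liver (2) and lung (2) at P6, and brain, retina, heart, kidney, liver and lung (2 each) from adults of 2 months. Input groups held 1 library each of brain, heart and trunk at E12, 16 libraries at P6 and 10 from adults. All ATAC-seq mice carried a GFP reporter induced by tamoxifen, the input mice as well, and the promoter that drives it is not given in the sources used here. The labels give P6, while the protocol text places collection 1 day later. The single-cell libraries came from whole brain of embryos (E9.5, E12.5 and E16.5), dissociated with collagenase, and from cortex at P8 and in adults of 2 months, dissociated with another kit, so age cannot be told apart from dissection and dissociation between embryonic and postnatal libraries. Each age is 1 library, so comparisons between ages had no replicate check and no test, and nothing in the labels says whether ATAC-seq libraries of one group came from separate animals: their p-values measure the spread between these libraries.

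The endothelium of brain and retina forms a barrier whose tight junctions block diffusion between cells, so that polar nutrients reach the tissue through membrane carriers. Slc2a1 encodes the glucose carrier GLUT1, and Slc16a1 encodes MCT1, which carries lactate, pyruvate and ketone bodies. Slc7a5 and Slc3a2 encode the light and heavy chain of one exchanger for large neutral amino acids, Slc7a1 a carrier for arginine and lysine, Slc38a5 and Slc38a3 sodium-coupled carriers for glutamine and related amino acids, and Slc6a6 the taurine carrier.

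Of the 8 genes, 5 had promoter sequences in the RefSeq table of build GRCm38.p6 (the same assembly as mm10, the build of the peak lists), with 6 windows of 300 bases that run from 250 bases before to 50 bases after an annotated transcription start. The 4 windows below are shown because the ATAC-seq data differ between them. Slc7a1 had 2 annotated starts on the minus strand of chromosome 5: an outer one (window chr5:148399855-148400154) and one 7.09 kb further into the gene (window chr5:148392766-148393065). The Slc38a5 window lay on the plus strand at chrX:8271131-8271430 and the Slc2a1 window on the plus strand at chr4:119108495-119108794. Capitals mark CTTTGA or its reverse complement TCAAAG, the core letters bound by TCF/LEF factors, the nuclear partners of beta-catenin in the Wnt signalling that brain vessels need to form a barrier, and GGGCGG or its reverse complement CCGCCC, the GC box.
Slc7a1 inner start: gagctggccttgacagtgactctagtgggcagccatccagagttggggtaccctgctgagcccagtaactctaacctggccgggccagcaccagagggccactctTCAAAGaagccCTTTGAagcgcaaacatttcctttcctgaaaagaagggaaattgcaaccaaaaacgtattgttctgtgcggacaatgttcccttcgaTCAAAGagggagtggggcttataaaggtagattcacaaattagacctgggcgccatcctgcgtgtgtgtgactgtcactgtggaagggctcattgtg
Slc7a1 outer start: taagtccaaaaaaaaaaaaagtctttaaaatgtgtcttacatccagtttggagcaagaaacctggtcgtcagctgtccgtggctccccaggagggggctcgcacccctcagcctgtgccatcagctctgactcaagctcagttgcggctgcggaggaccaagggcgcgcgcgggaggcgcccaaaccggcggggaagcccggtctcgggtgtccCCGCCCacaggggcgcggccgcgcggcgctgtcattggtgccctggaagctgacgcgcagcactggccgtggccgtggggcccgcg
Slc38a5 start: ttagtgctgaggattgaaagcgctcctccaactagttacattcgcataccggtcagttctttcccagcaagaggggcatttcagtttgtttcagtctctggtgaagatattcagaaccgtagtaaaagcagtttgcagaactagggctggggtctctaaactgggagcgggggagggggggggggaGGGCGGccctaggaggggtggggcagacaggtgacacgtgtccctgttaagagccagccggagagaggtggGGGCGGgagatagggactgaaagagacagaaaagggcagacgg
Slc2a1 start: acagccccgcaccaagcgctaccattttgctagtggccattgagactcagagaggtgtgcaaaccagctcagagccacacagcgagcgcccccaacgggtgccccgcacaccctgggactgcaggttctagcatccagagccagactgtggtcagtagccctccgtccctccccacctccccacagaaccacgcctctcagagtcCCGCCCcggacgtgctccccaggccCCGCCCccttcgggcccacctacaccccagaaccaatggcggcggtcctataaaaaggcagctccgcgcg

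The inner Slc7a1 window held 3 matches to CTTTGA on either strand, 145, 134 and 47 bases before its start site. Among 32851 promoter windows of the same length, 16.0% held at least 1 such match, 1.73% at least 2 and 0.164% at least 3. Of the other 5 windows, the Slc3a2 window held 1 match and the outer Slc7a1 window and those of Slc2a1, Slc16a1 and Slc38a5 held 0. The inner Slc7a1 window also held TATAAA, the core letters of the TATA box, 28 bases before the start (13.6% of all windows held it or its reverse complement TTTATA), while it held no GC box. Each of the other 5 windows held 1 or 2 GC boxes, which 35.7% of all windows held. Its GC content was 51.7%, against 65.0% at the outer start and a median of 52.7% over all windows. The other motifs searched on both strands were GGAAG (ETS factors), CACGTG (E-box), TGTTTAC (FOX factors) and TGATGNAA (amino acid response element); the first was found in 71.4%, and the last, found in 3.97% of all windows, in none of the 6. These letter matches are descriptions of sequence and show no binding.

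The peak lists separated the 2 Slc7a1 starts. A region called open at the inner start (chr5:148392384-148393612) was present in 13 of 13 brain and retina endothelial libraries of all ages, in 3 of 4 E12 trunk endothelial libraries and in 0 of 20 endothelial libraries of heart, kidney, liver and lung. Among input libraries it was present in 3 of 3 from P6 brain, 1 of 3 from P6 retina and 0 of the other 23. The outer start carried a peak in 37 of 37 endothelial libraries and in 27 of 29 input libraries, so the gene's outer start was open in every organ sampled. The authors' fold enrichment of the peak at the inner start ranged from 2.49 to 5.48 over its 16 endothelial libraries, with a median of 4.18. Among the same number of strongest peaks in every library, no region near Slc7a1 or Slc38a5 kept this barrier pattern in adults or at P6. Presence of a region is a description without a test, and the pattern was looked up in the same lists that define the regions.

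Slc38a5 showed the reverse arrangement: its annotated start had no peak in endothelium, while 2 distant regions did. The promoter window printed above had a peak in 0 of 37 endothelial libraries and in 1 of 29 input libraries, one of E12 heart. A region at chrX:8260514-8261183, 10.2 kb before the gene, was present in 3 of 3 brain libraries at E12, 3 of 3 brain and 3 of 3 retina libraries at P6, 1 of 2 brain libraries and 0 of 2 retina libraries in adults. A second at chrX:8257355-8258314, 13.1 kb before the gene, was present in 3 of 3 brain libraries at E12, 2 of 3 brain and 2 of 3 retina libraries at P6, 2 of 2 brain libraries and 0 of 2 retina libraries in adults. Both were absent from the peak lists of all 24 other endothelial libraries and all 29 input libraries. They were weak peaks: the authors' fold enrichment ranged from 3.10 to 4.23 and from 2.30 to 4.36, and the median place of each peak in its library's list, ordered by p-value, was 68.3% and 75.2% of the way down. Of the 10 regions within 50 kb of Slc38a5, the single one present in all 37 endothelial libraries lay 18.1 kb before it, at the start of the neighbouring gene Ftsj1.

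**Figure D1:**
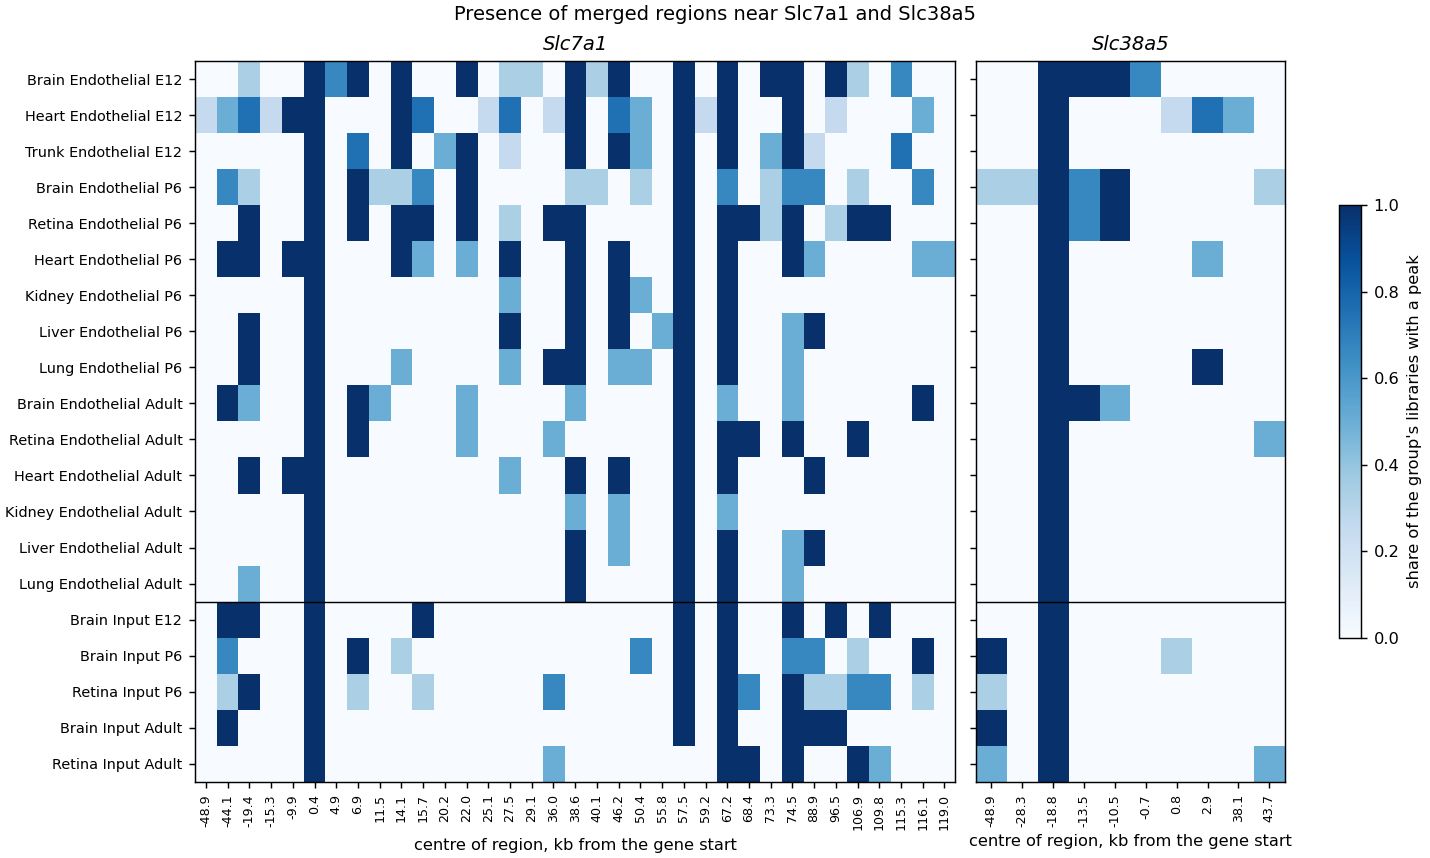
Each column is a region within 50 kb of Slc7a1 (left) or Slc38a5 (right), placed by the distance of its centre from the outer start in kb, each row is a group of libraries, and the blue scale gives the share of the group's libraries with a peak. The inner Slc7a1 start, about 7 kb into the gene, is filled in all brain and retina endothelial rows and in no heart, kidney, liver or lung row, and the 2 Slc38a5 regions before the gene are filled in brain rows and P6 retina.

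The other transporter genes were open at a gene end in nearly every library. The Slc2a1 promoter carried a peak in 37 of 37 endothelial and 29 of 29 input libraries, the Slc3a2 promoter in 37 and 28, and the Slc16a1 promoter in 36 and 29, the exception being 1 adult lung library. The higher end of Slc7a5 and the lower end of Slc6a6, for which no promoter window was at hand, had a peak in all 66 libraries. Slc38a3 stood apart, with a peak within 250 bases of its lower end in 3 and of its higher end in 4 of 37 endothelial libraries.

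The 37 endothelial lists merged into 275396 regions, of which 255 lay within 50 kb of the 8 genes, from 10 at Slc38a5 to 49 at Slc38a3 and at Slc6a6. A region was given the barrier pattern at an age where it was present in every brain and retina endothelial library and in no heart, kidney, liver or lung endothelial library of that age. In adults 8 of the 255 regions (3.14%) had it, against a background of 0.501% of all regions: 2 at Slc2a1, 2 at Slc38a3, 1 each at Slc16a1, Slc7a5, Slc3a2 and Slc7a1, and 0 at Slc38a5 and Slc6a6. At P6, 3 of 255 (1.18%) had it, against 0.294%, namely the inner Slc7a1 start, the Slc38a5 region 10.2 kb away and a region inside Slc38a3 (chr9:107664918-107665512). Regions present in every endothelial library of an age were also more frequent near these genes than over all regions: 18 (7.06%) against 4.07% in adults, 30 (11.8%) against 6.18% at P6 and 44 (17.3%) against 9.91% at E12. With the same number of strongest peaks in every library there was 1 adult barrier region, near Slc6a6 (0.901%, against 0.352%), and 1 at P6, near Slc7a5 (0.901%, against 0.275%). Neither gene had a barrier region of that age among all peaks, so none of the regions counted above kept the pattern. The shared patterns were no denser than over all regions (9.91% against 9.84% in adults). The windows hold other genes too, 7 of them around Slc3a2 and none around Slc16a1.

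The adult barrier regions differed in how far they held at other ages. Near Slc2a1, the region at chr4:119094724-119095798, 12.9 kb before the gene, was present in 13 of 13 brain and retina and 4 of 4 trunk endothelial libraries but also in 7 of 20 of heart, kidney, liver and lung, and in 1 of 29 input libraries. The second Slc2a1 region, at chr4:119076500-119077717 and 31.0 kb before the gene, was present in 12 of 13, 3 of 4 and 5 of 20, and in 14 input libraries. A region inside Slc38a3 next to its lower end (chr9:107651263-107652185) was present in 13 of 13 brain and retina, 3 of 4 trunk and 3 of 20 other endothelial libraries and in 3 input libraries. The region near Slc16a1 (chr3:104596534-104597667, 41.0 kb before the gene) was present in 10 of 13, 0 of 4 and 5 of 20, and in 20 of 29 input libraries, more widely in whole organs than in endothelium. The second adult Slc38a3 region (chr9:107650171-107651027) held least, in 5 of 13 brain and retina and no other endothelial library, and in 10 input libraries. Those near Slc7a5 (chr8:121934417-121935896) and Slc3a2 (chr19:8679033-8679912) were present in 12 and 13 of 13 brain and retina libraries. They were present in 24 and 25 endothelial libraries in all and in 18 and 12 input libraries. The P6 region of Slc38a3 was present in 10 of 13 brain and retina and 4 of 4 trunk libraries, in 0 of 20 others and in 0 of 29 input libraries. Of these regions, then, the P6 region of Slc38a3 and the Slc38a5 pair were seen in endothelial lists alone.

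Regions found in brain with no regard to retina were more numerous. In adults 18 of 255 regions were present in both brain libraries and in no heart, kidney, liver or lung endothelial library (7.06%, against 2.92% of all regions), at P6 4 (1.57%, against 0.567%), and at E12, with heart and trunk as the other organs, 8 (3.14%, against 1.09%). With the same number of strongest peaks in every library the E12 count was 0 (0.0%, against 0.744%). Of the 18 adult regions 8 (44.4%) were also in the 1 adult brain input library, beside 61.8% over all regions of that adult brain set. The matching set for retina held 30 regions in adults, of which 25 (83.3%) were also in at least 1 retina input library, and 22 at P6, of which 19 (86.4%) were. Over all regions of the retina set those shares were 96.7% and 91.6%. The part of other retinal nuclei in the retina values was not tested.

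The number of peaks near each gene was then compared between barrier endothelium (brain and retina) and the endothelium of heart, kidney, liver and lung, which the study's design sets side by side. Peaks that overlapped a gene or lay within 50 kb of it were counted among the same number of strongest peaks in every library, 19464 in adults and 27160 at P6, since the lists differed in length. A gene was called at an unadjusted exact two-sided permutation p under 0.05, with 4 against 8 libraries in adults (smallest possible p 0.00202) and 6 against 8 at P6 (smallest possible p 0.000333). Libraries were permuted singly here and at E12, with no regard to organ. The p-values thus measure the spread between libraries and not between organs, of which barrier endothelium has brain and retina alone. In adults 3 of the 8 genes were called higher (Slc16a1, Slc7a5 and Slc6a6), against a background of 15.0% of 18333 genes, and 0 lower, against 5.93%. With all deposited peaks 7 were called in adults, where 26.7% of all genes were, and with brain alone against the other organs 1, where 8.70% of genes were. At P6 again 3 were called higher (Slc16a1, Slc7a5 and Slc2a1), against 17.8% of 18982 genes, and 0 lower, against 10.4%. That count was 1 with brain alone (9.39% of all genes) and 1 with peaks of −log10 q of at least 5 (11.1%). The median difference over the 8 genes was 0.625 peaks in adults and 0.479 at P6, beside 0.25 and 0.167 over all genes tested.

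Slc16a1, the lactate and ketone body carrier, had the clearest difference among the same number of strongest peaks in every library. At P6 the 3 brain libraries held 6, 5 and 5 peaks near it and the 3 retina libraries 4, 7 and 7, while heart held 2 and 3, kidney 3 and 2, liver 2 and 2, and lung 3 and 2. The groups did not overlap, with means of 5.67 ± 1.21 (SD, n = 6) and 2.38 ± 0.52 (SD, n = 8), a difference of 3.29 peaks (exact permutation p = 0.000333, the smallest possible; Benjamini-Hochberg adjusted p = 0.0137 over all genes). The P6 call was lost with all deposited peaks, as counts or per 10000 peaks of each list (exact permutation p up to 0.380). With all deposited peaks the P6 heart mean was 10.0, beside 9.33 in brain, 11.3 in retina, 9.0 in kidney, 5.5 in liver and 6.5 in lung. In adults the brain libraries held 2 and 4 of the strongest peaks and the retina libraries 7 and 7, against 3 and 2 in heart, 2 and 1 in kidney, 1 and 1 in liver and 1 and 0 in lung. The adult brain values reached into the range of the other organs, and the difference of 3.62 peaks (means 5.00 ± 2.45, SD, n = 4, and 1.38 ± 0.92, SD, n = 8; exact permutation p = 0.00808, adjusted p = 0.0963) was not called with brain alone against the other organs. The adult call was also lost within 10 kb. The adult retina input libraries held 7 and 6 of the strongest peaks and the adult brain input library 5, and the P6 inputs held 4, 5 and 5 in brain and 7, 5 and 3 in retina. The single adult brain input count lay above both adult brain endothelial counts, while endothelial and input counts overlapped in adult retina and in both organs at P6. At P6 the endothelial minus input difference was 0.83 peaks (exact permutation p = 0.40).

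Slc7a5, the light chain of the neutral amino acid exchanger, was called at both ages. Adult brain libraries held 4 and 4 peaks and retina 7 and 3, against 2 or 3 in each of the 8 other libraries, a difference of 2.00 (exact permutation p = 0.0101, adjusted p = 0.108). At P6 brain held 8, 6 and 6 and retina 9, 8 and 9, against 8 and 7 in heart, 4 and 3 in kidney, 4 and 5 in liver and 3 and 3 in lung. The P6 heart libraries thus lay within the barrier range, and the difference was 3.04 peaks (exact permutation p = 0.0143, adjusted p = 0.0846). Without the first P6 brain library the call was lost (exact permutation p = 0.0590). The P6 call was also lost within 10 kb, with −log10 q of at least 5 and with brain alone (exact permutation p up to 0.396). In adults it was lost within 10 kb (exact permutation p = 0.182).

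Slc6a6, the taurine carrier, was called in adults with brain at 7 and 6, retina at 11 and 7, heart at 6 and 6, kidney at 6 and 7, liver at 2 and 2 and lung at 5 and 5. Only the first retina library lay above the other organs, the difference was 2.88 peaks (exact permutation p = 0.0444, adjusted p = 0.219), and the call was lost in 14 of 20 alternative settings, 10 of which leave out 1 of the 12 libraries (exact permutation p from 0.0152 to 0.182 over the 12). Slc2a1, the glucose carrier, was called at P6 with brain at 6, 4 and 5, retina at 7, 5 and 7, heart at 6 and 4, kidney at 5 and 4, liver at 4 and 4 and lung at 3 and 3. The groups overlapped from 4 to 6 peaks, the difference was 1.54 (exact permutation p = 0.0350, adjusted p = 0.141), and the call was lost in 13 of 22 settings, 8 of which leave out 1 of the 14 libraries (exact permutation p from 0.0122 to 0.0909 over the 14). In adults Slc2a1 held 3 and 3 peaks in brain and 3 and 5 in retina against 1 to 4 elsewhere, a difference of 1.00 that was not called (exact permutation p = 0.210). The adult Slc2a1 difference gained a call in 4 of 20 alternative settings (lowest exact permutation p = 0.00202).

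Slc3a2, Slc7a1, Slc38a5 and Slc38a3 passed at neither age in this count, and 2 of them turned direction in adults under other settings. The heavy chain gene Slc3a2 had 5 to 8 peaks in adult barrier libraries and 5 to 8 elsewhere (difference -0.25, exact permutation p = 0.772), and Slc7a1 1 to 4 and 2 to 4 (difference -0.12, exact permutation p = 1.0). With all deposited peaks Slc3a2 was higher by 2.12 peaks (exact permutation p = 0.0424). In 1 other adult setting Slc3a2 was called lower in barrier endothelium (exact permutation p = 0.00202). It was also called lower in 1 setting at P6 (exact permutation p = 0.000333), so its direction depended on the setting. Slc38a3 varied widely, from 4 to 10 in adult barrier libraries and from 3 to 14 elsewhere (difference -1.12, exact permutation p = 0.636). It was higher by 6.75 peaks with all deposited peaks (exact permutation p = 0.00202, the smallest possible) and by 2.75 within 10 kb (exact permutation p = 0.0141). Slc38a5 had 1 peak in every library of heart, kidney, liver and lung at both ages and 1 or 2 in brain and retina, too few to separate the groups (exact permutation p = 0.333 in adults and 0.165 at P6). With all deposited peaks Slc38a5 was called higher in adults (exact permutation p = 0.0182), with means of 2.5 in brain and 1.5 in retina and 1.0 in each other organ. It also gained a call in 2 settings at P6 (lowest exact permutation p = 0.00266). After adjustment over all genes 857 genes passed at 0.05 in adults and 2023 at P6, and of the 8 only Slc16a1 at P6 was among them.

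**Figure D2:**
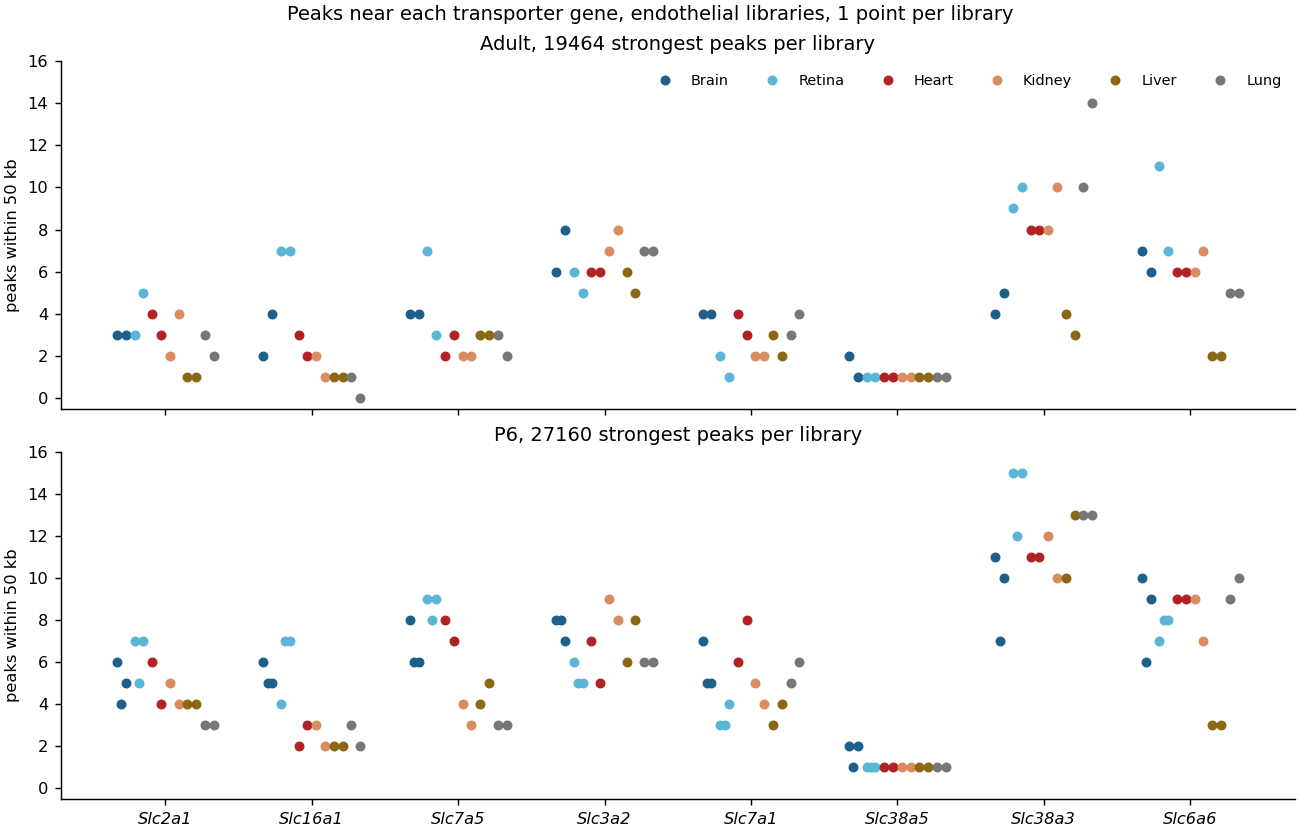
Each point is 1 endothelial library and the vertical axis gives the number of peaks within 50 kb of each gene among the 19464 (adult, top) or 27160 (P6, bottom) strongest peaks, with colours for the organ. For Slc16a1 at P6 the brain and retina points (4 to 7) lie above all others (2 to 3), and in adults the brain points (2 and 4) lie nearer the other organs than the retina points (7 and 7) do.

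At E12 only brain could be set against heart and trunk, with 3 against 8 libraries and 39096 strongest peaks in each. One gene, Slc38a3, was called higher, against a background of 4.35% of 20125 genes, and 0 lower, against 1.90%. Brain held 13, 13 and 12 peaks near this glutamine carrier, heart 10, 10, 8 and 7 and trunk 7, 9, 11 and 12, so 1 trunk library reached the lowest brain value. The difference was 3.42 peaks (exact permutation p = 0.0242, adjusted p = 0.628), and without the first or the second brain library the call was lost. With all deposited peaks 3 genes were called higher (11.2% of all genes), per 10000 peaks of each list 2 (4.12%) and within 10 kb 0 (2.90%). Slc3a2 held 9, 11 and 9 in brain and 5 to 10 elsewhere (exact permutation p = 0.0545). Slc16a1 held 6, 6 and 6 peaks in brain against 3 to 6 in heart and 6 or 7 in trunk, a difference of 0.38 (exact permutation p = 0.830), and whether this differs from P6 was not tested. In E12 data no gene passed adjustment, while 1258 had an unadjusted exact permutation p under 0.05.

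Endothelial nuclei were compared with input nuclei of the same organ at P6, in brain and retina together, permuting within organ (6 against 6 libraries, smallest possible p 0.005). Called higher in endothelium were 2 of the 8 genes, Slc7a5 and Slc38a3, against a background of 12% of genes (2324 of 19435), and 0 were lower, against 2.64%. Slc7a5 held 8, 6, 6 and 9, 8, 9 peaks in brain and retina endothelium and 3, 5, 6 and 8, 6, 7 in input, a difference of 1.83 (exact permutation p = 0.03, adjusted p = 0.241). Slc38a3 held 11, 7, 10 and 15, 12, 15 in endothelium and 2, 5, 6 and 10, 7, 15 in input, a difference of 4.17 (exact permutation p = 0.03, adjusted p = 0.241). Input ranges overlapped endothelial ranges for both genes over the 2 organs. With peaks of −log10 q of at least 5 the Slc7a5 difference turned to -1.50 peaks (exact permutation p = 0.33). The count of 2 genes became 1 with all deposited peaks (4.66% of all genes). There both Slc7a5 and Slc38a3 lost their call, and the 1 gene was another of the 8. The count became 4 per 10000 peaks of each list (22.2%), without Slc7a5, and 0 with −log10 q of at least 5 (3.02%). Brain alone, with 3 against 3 libraries, cannot reach the limit. The Slc7a5 call was lost without the first brain endothelial or the first brain input library, and the Slc38a3 call without any 1 of the 3 brain inputs, the second retina input, or the first or the third retina endothelial library. Near Slc7a1 brain endothelium held 7, 5 and 5 peaks and brain input 1, 1 and 3. The difference was 4.00 (exact permutation p = 0.1, the smallest that 3 against 3 allows). Retina held 3, 3 and 4 near Slc7a1 in endothelium and 4, 1 and 4 in input. In brain Slc38a3 differed by 5.00 at the same p, so a brain difference without overlap was not particular to Slc7a1. The share of all genes without overlap in brain was not counted. No gene of all tested passed adjustment here, with 2837 at an unadjusted exact permutation p under 0.05.

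Several library properties moved with organ. The names of the aligned-read files recorded in the peak lists ended in 7 different ways, which followed the organ almost completely, so read processing and organ cannot be told apart in the comparisons between organs. In P6 brain the first and second endothelial libraries had another ending than the third and all brain inputs. Processing and kind of nuclei are therefore partly mixed in the P6 brain comparison with input. Within the 1 ending that holds both kinds of P6 retina library, endothelial minus input differences were 1.67 peaks for Slc7a5 and 3.33 for Slc38a3 (exact permutation p = 0.2 and 0.4, smallest possible 0.1). Tags used for peak calling ranged from 10139069 to 59082479 per library, and lists from 19464 to 144197 peaks. As a check of the label, all 10 endothelial marker genes examined, among them Cdh5, Kdr and Cldn5, had more nearby peaks on average in P6 brain and retina endothelial libraries than in input, 7 of them at an unadjusted exact permutation p under 0.05.

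The single-cell libraries gave the RNA of the same genes by age. A barcode was counted as endothelial with at least 200 genes, at most 10% mitochondrial UMIs (unique molecular identifiers, which count RNA molecules) and at least 3 of Cdh5, Pecam1, Egfl7, Esam, Tie1 and Kdr detected. In age order (E9.5, E12.5, E16.5, P8, adult) this left 5644, 6347, 3786, 4778 and 3154 barcodes, with median UMIs of 7158.5, 10469, 9017, 8468 and 4896. Levels are UMIs summed over these barcodes and scaled to the total of their UMIs (CPM), and do not depend on gene length because the kit counts 3' ends. Intervals are 95% intervals that cover counting error only. The 10 endothelial markers summed to 2778, 5790, 13440, 10530 and 15620 CPM with none at 0.

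Together the 8 genes rose from 422.7 CPM at E9.5 to 3206 at E12.5 and 7501 at E16.5, were at 6242 at P8 and reached 9970 in adults. Their make-up changed as well: in age order Slc2a1 gave 64.1%, 36.6%, 16.3%, 13.3% and 52.4% of these UMIs. After thinning each barcode to 1000 UMIs, the median barcode held UMIs of 0, 2, 4, 4 and 4 of the 8 genes in age order, and the share of barcodes with none fell from 66.2% at E9.5 to 23.8%, 1.64%, 2.36% and 0.388%. Barcodes with none of the 6 endothelial markers, thinned alike, held a median of 0, 0, 0, 1 and 0 of the 8 genes, and 73.6%, 68.0%, 60.8%, 45.8% and 65.0% of them held none (1075, 554, 51, 72 and 123 barcodes).

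Called by a difference of at least 2-fold, 7 of the 8 genes were higher at E12.5 than at E9.5, against a background of 20.1% of 9859 genes. Downward, 1 (Slc16a1) passed the 2-fold limit, against 9.23%, at levels no higher than in barcodes without endothelial markers at both ages. At E9.5 Slc38a5 (1.20 CPM) stood below barcodes without endothelial markers (9.01 CPM). Slc7a5 (7.65 CPM) and Slc3a2 (59.8 CPM) stood at their level (7.21 and 59.4 CPM), and Slc38a3 at 1.07 CPM beside 0.600. Those barcodes include other cell types, among them epithelial-like ones with 62.1 CPM of Slc3a2, so an equal level does not mean that the RNA was absent. From E12.5 to E16.5 another 7 steps up were counted (all but Slc2a1), against 8.39% of 9854 genes, and 0 down, against 7.90%. Between E12.5 and P8, 5 were higher, against 18.7%, and 0 lower, against 14.6%. From P8 to adult 3 were higher (Slc2a1, Slc7a5 and Slc6a6), against 14.5%, and 2 lower (Slc16a1 and Slc38a5), against 11.2%, and adult against E12.5 gave 5 higher, against 29.1%, and 0 lower, against 22.8%. The median log2 ratios of the 8 genes in these 5 comparisons were 3.56, 1.60, 1.28, -0.30 and 1.39, beside 0.17, -0.01, 0.03, 0.08 and 0.09 over all genes tested. The comparisons share libraries, E12.5 entering 4 of them, so their values are not independent of one another.

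Slc2a1, the glucose carrier, stood at 271, 1174, 1224, 830 and 5220 CPM in age order. Its highest level, in adults, was 6.29 times that at P8 (interval 6.22 to 6.35), and from E12.5 to P8 it moved by less than 2-fold. A UMI was held by 73.0% of endothelial barcodes at E9.5 and 93.5% at E12.5, and by 30.1% and 37.7% of barcodes with none of the 6 endothelial markers, at lower depth (median 1769 and 6496.5 UMIs). Thinned to 1000 UMIs the shares were 23.3% and 55.4% of endothelial barcodes, beside 16.4% and 7.04% of those without markers, which held 154.6 and 68.7 CPM. The E9.5 share was thus nearer to that in barcodes without markers than the E12.5 share was.

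Slc16a1, the carrier for lactate and ketone bodies, had a different course, with 18.2, 6.86, 89.2, 1686 and 336 CPM. At E9.5 and E12.5 it was no higher than in barcodes without endothelial markers (30.3 and 10.9 CPM), so no order is read between those ages and no fold is given against them. The adult level was 5.02-fold below P8. At P8 94.7% of endothelial barcodes held a UMI, against 32.3% of the 130 barcodes without markers (median depth 1247 UMIs). Among the 8 genes it was the most abundant at P8 and the least abundant at E12.5.

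The exchanger's chains did not keep a constant ratio. Slc7a5, the light chain, stood at 7.65, 303, 1280, 223 and 684 CPM in age order, with its lowest level after E9.5 at P8, and Slc3a2, the heavy chain, at 59.8, 913, 2158, 984 and 700. Per Slc7a5 UMI there were 7.82, 3.02, 1.69, 4.41 and 1.02 Slc3a2 UMIs from the youngest to the oldest library. Both were highest at E16.5, where 93.3% and 98.9% of barcodes held a UMI, beside 19.6% and 64.7% of the 51 barcodes without endothelial markers (median 5186 UMIs). Thinned to 1000 UMIs the endothelial shares were 67.2% and 81.5%, and those without markers 7.84% and 19.6%. At E9.5 both were close to the barcodes without endothelial markers, which held 7.21 CPM of Slc7a5 and 59.4 of Slc3a2. Slc3a2 is also the partner of other light chains, and it stood at 200.7 to 327.2 CPM in microglia-like and mural-like barcodes (none of the 6 endothelial markers) of E12.5, P8 and adults where a class held at least 20 barcodes.

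Slc7a1, the arginine and lysine carrier, stood at 22.2, 214, 956, 759 and 652 CPM, and thus kept its level after E16.5 within 2-fold. Slc38a5 stood at 1.20, 268, 857, 772 and 214 CPM. At E9.5, 0.762% of endothelial barcodes held an Slc38a5 UMI, below the 2.15% of barcodes without endothelial markers, so that level is not above that of other cells of the library. Erythroid-like barcodes of that library held 48.5 CPM. No fold is given against the E9.5 endothelial level, and the adult level was 3.61-fold below P8. Slc38a3 stood at 1.07, 118, 335, 242 and 186 CPM. At E9.5 0.850% of endothelial barcodes held an Slc38a3 UMI and 0.179% of those without markers, at 0.600 CPM from 2 UMIs, so no fold is given against E9.5 for this gene either. Both glutamine carriers were highest at E16.5, and from P8 to adults Slc38a3 stayed within 2-fold. Slc6a6, the taurine carrier, stood at 41.5, 210, 602, 746 and 1979 CPM and was the one gene of the 8 with a higher CPM at every age than at the age before. The share of endothelial barcodes with an Slc6a6 UMI fell from 86.0% at E16.5 to 70.6% at P8, and after thinning from 39.7% to 37.6%.

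**Figure D3:**
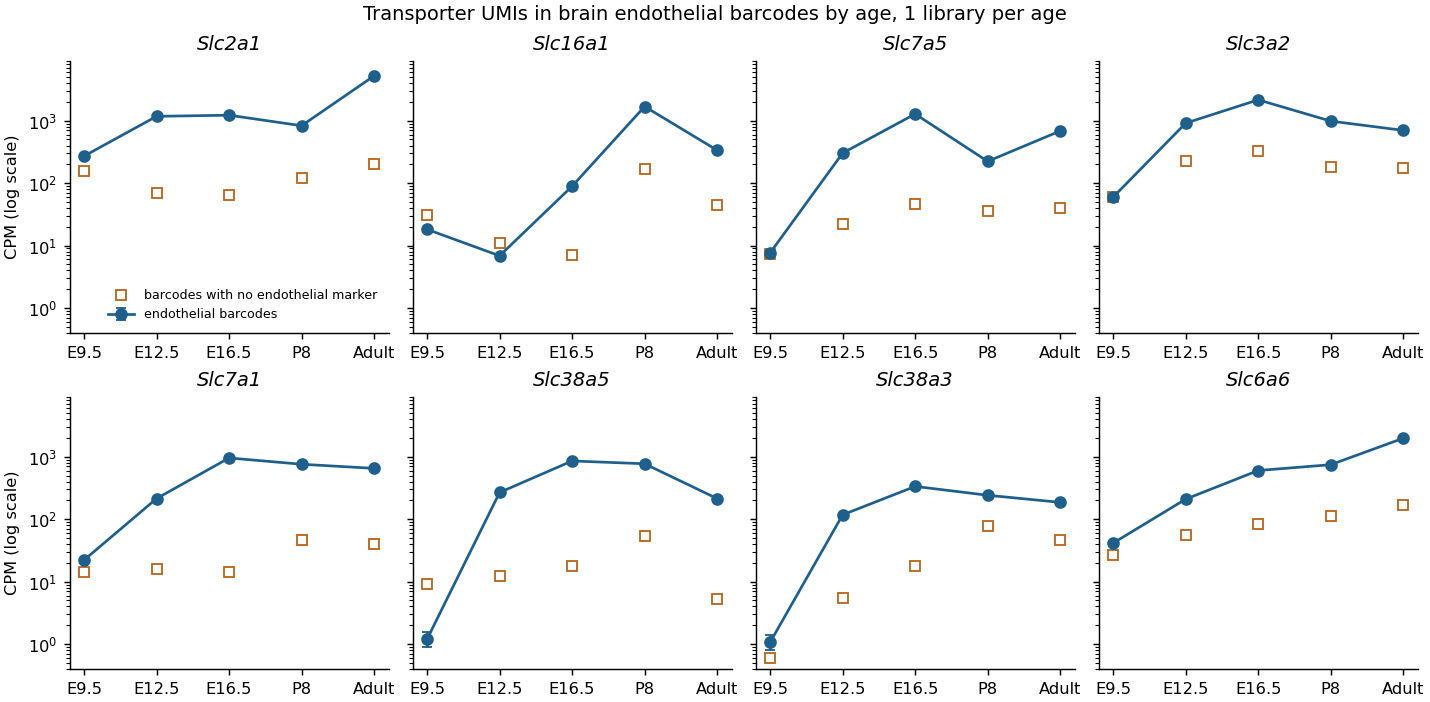
Each panel gives 1 gene's CPM on a log axis in endothelial barcodes (filled points with 95% counting intervals, mostly smaller than the points) and in barcodes with no endothelial marker (open squares) of the 5 libraries. Slc16a1 peaks at P8 (1686 CPM), Slc2a1 and Slc6a6 in adults, and the other 5 genes at E16.5.

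Within each library barcodes were sorted by vessel markers: arterial-like, venous-like or tip-like where at least 2 markers of that list were detected and more than of either other list, and a group with no marker of any list. With 1 library per age these are descriptions, the classes are ranges of a marker count, and barcodes just below the limit were many (in adults 238 for arterial and 428 for venous). In adults Slc38a5 stood at 13.7 CPM in 889 arterial-like barcodes, 226.7 in 709 with no vessel marker and 469.6 in 585 venous-like ones. Slc16a1 stood at 108, 653 and 384 CPM in the same order, Slc7a5 at 242, 1289 and 800, Slc7a1 at 302, 1055 and 821, Slc3a2 at 414, 918 and 880, and Slc38a3 at 79.7, 308 and 241. All 6 were lowest in arterial-like barcodes, and the 5 other than Slc38a5 were highest where no vessel marker was detected. Slc2a1 was also lowest in arterial-like barcodes but differed less, at 4800, 4916 and 6163 CPM, and Slc6a6 was highest in arterial-like barcodes, at 2327, 1540 and 1903 CPM. Median depth differed between the classes (6802, 3758 and 8789 UMIs), and a class without markers is easier to enter at low depth; its part in these differences was not tested.

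**Figure D4:**
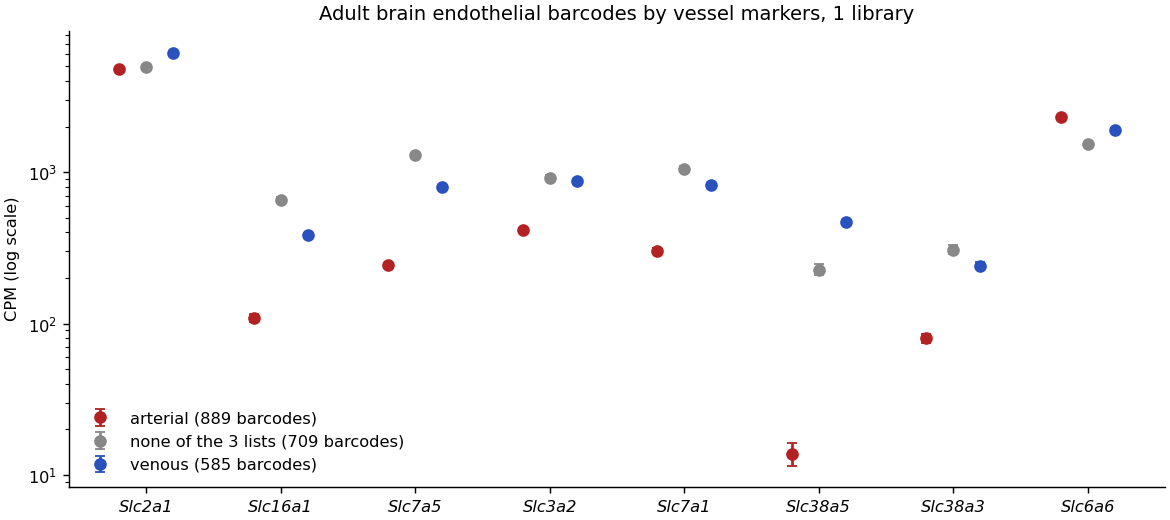
Points give CPM on a log axis with 95% counting intervals for adult arterial-like, marker-free and venous-like barcodes of 1 library. Slc38a5 spans 13.7 to 469.6 CPM, while Slc2a1 stays between 4800 and 6163.

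The vessel pattern was not the same at earlier ages. Slc38a5 stood at 356 CPM in 1188 arterial-like, 255 in 805 tip-like and 205 in 2025 venous-like barcodes at E12.5, at 467, 751 and 1139 in 954, 610 and 1064 barcodes at E16.5, and at 323, 646 and 985 in 898, 837 and 1074 barcodes at P8. Its order at E12.5 was therefore the reverse of that at the later ages, although these lists were detected at other depths in each library. Higher arterial-like than venous-like levels at E12.5 were not particular to Slc38a5. They were also seen for Slc2a1, Slc7a5, Slc3a2 (1406.8 and 644.6 CPM), Slc7a1, Slc38a3 (141.5 and 85.3 CPM) and Slc6a6. Slc16a1 went the other way, at 5.41 and 7.22 CPM. Slc6a6 stood at 429, 98.5 and 174 CPM at E12.5, 847, 302.5 and 609 at E16.5, and 1579, 188 and 740 at P8, highest in arterial-like and lowest in tip-like barcodes at all 3 ages. Slc2a1 stood at 2047, 1294 and 798 CPM at E12.5 and 1388, 658 and 740 at P8, with arterial-like barcodes highest at both. At P8 Slc16a1 stood at 1888, 1577 and 1493 CPM, so its postnatal rise was seen in all 3 classes.

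Other cell types were present in the libraries. The mural list (pericytes and smooth muscle) summed in endothelial barcodes to 53.7, 89.8, 185.5, 688.1 and 1586 CPM by age, the erythroid list to between 2363 and 16090, and the 7 other lists (astroglia, neuron, oligodendroglia, microglia, mesenchyme, epithelium and choroid plexus) each to at most 397.4. Mural RNA and Slc6a6 were thus both higher at each age than at the one before. Adult mural-like barcodes held 217.8 CPM of Slc3a2, 116.2 of Slc2a1, 72.6 of Slc6a6 and at most 36.3 of each of the other 5 genes. The part of mural RNA in the age differences was not tested. Without barcodes that held 2 or more markers of another cell type, 4 rather than 5 genes were called between E12.5 and P8, with Slc38a3 at a log2 ratio of 0.85, and the counts of the other 4 comparisons were the same. That filter removed 97.1% of endothelial barcodes at E12.5, leaving 186, and 85.4% at P8, leaving 696. With the erythroid list left aside it removed 15.2% and 13.1%, and 5 genes were called. No doublet caller was run. The E12.5 and E16.5 libraries shared 50 barcodes and the others 0 to 31 per pair.

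Among the 68 other genes of the same transporter families, 19 to 25 per comparison had enough UMIs. At E12.5 against E9.5, 6 of 19 were higher and 3 lower (20.1% and 9.23% of all genes tested), and at E16.5 against E12.5, 8 of 21 and 3 (8.39% and 7.90%). At P8 against E12.5, 9 of 23 were higher and 7 lower (18.7% and 14.6%), in adults against P8, 6 of 23 and 6 (14.5% and 11.2%), and in adults against E12.5, 10 of 25 and 9 (29.1% and 22.8%). The most abundant was Slc38a2, another glutamine carrier, at 84.0, 285, 726, 530.8 and 96.8 CPM by age. Slc16a3, a lactate exporter, stood at 129.9 CPM at E9.5 and 1.68 in adults, opposite to Slc16a1. Of 20 other solute carriers of the barrier, 10 of 15 tested were higher and 0 lower at E12.5 than at E9.5, 12 of 19 higher and 1 lower from E12.5 to E16.5, 12 of 19 and 2 from E12.5 to P8, 5 of 20 and 5 from P8 to adult, and 12 of 19 and 4 from E12.5 to adult, beside the same shares of all genes, with Slco1c1, a carrier of thyroid hormone, at 0.765, 129.6, 1042, 1640 and 1704 CPM. Of 12 target genes of the amino acid response and hypoxia outside transport, 4 of 8 tested were higher and 0 lower at E16.5 than at E12.5. Between E12.5 and P8, 0 differed 2-fold. Ldha, which makes lactate, stood at 831.5 CPM at E12.5 and 1637 at E16.5, just under the 2-fold limit. The response genes gave 1 higher and 3 lower of 8 tested at E12.5 against E9.5, 3 and 1 of 9 in adults against P8, and 4 and 2 of 8 in adults against E12.5.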

How the data were processed

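The 8 genes, the marker lists and the tests were chosen with earlier results of these data known. ATAC-seq peaks were called by the authors with MACS2 2.1.2 in broad mode, 1 library at a time and without a control library, per the file headers; Bowtie2, SAMtools 1.13, Picard and build mm10 come from the submitters' processing notes. The deposited peak lists give each peak's pileup signal, its fold (ratio) over the local background and the −log10 of its p-value and q-value; these are the authors' values, used to rank, filter and describe peaks within a list. The build was checked on gene ends: 40.9% to 66.5% of protein-coding genes had a peak within 500 bases of an end, and 4.27% to 20.2% after moving the genes 100 kb. The deposited single-cell files hold UMI counts made by the authors with Cell Ranger, per the submitters' processing notes. The E16.5 matrix was read with the gene table of the other libraries: its genes' levels had a Spearman correlation of 0.924 to 0.959 with those libraries, and 0.329 to 0.349 with rows moved by 1. The bulk RNA-seq estimates per transcript were not used here.

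Peaks were counted within 50 kb of each gene among the strongest peaks by −log10 p, and group means were compared by exact two-sided permutation tests per gene. Benjamini-Hochberg adjustment ran over all protein-coding genes with at least 1 such peak in any compared library. The organ was the stratum for endothelial against input. Tested on simulated data with 200 genes changed 3-fold, the test recovered 78.5% in the adult comparison, 89.0% at P6, 72.0% at E12 and 76.0% against input. Of those changed 2-fold it recovered 45.0%, 59.5%, 46.0% and 47.5%. The simulated counts were independent Poisson draws without differences among the organs of a group, so the recovery does not cover such differences. Changed genes were drawn from those with a mean of at least 2 peaks, so it does not cover genes with fewer, such as Slc38a5. Single-cell CPM are summed UMIs with exact Poisson 95% intervals, set beside the levels in barcodes without endothelial markers. Ratios were called at 2-fold among genes with at least 20 UMIs and 5 CPM in 1 of the libraries. The genes named were the 8 in every comparison, the 5 most alike to Slc2a1 and to Slc38a5 over the libraries, and at most 4 per related list by highest CPM. Alternatives covered the window, the peak lists and thresholds, brain alone, the replicate block, single libraries left out, and filters on barcodes. Python 3.11.15, numpy 2.4.6, pandas 2.3.3, scipy 1.17.1, statsmodels 0.14.6 and matplotlib 3.10.9 were used.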

Additional observations from a re-analysis of the deposited data

Results flagged for a closer look

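In the 4 trunk endothelial libraries of E12, 3 of the 8 genes had 1 library apart from 3 equal ones in the number of peaks within 50 kb. Near Slc2a1 the first library held 10 peaks and the others 9, 9 and 9, and near Slc7a5 the first library held 5 and the others 6, 6 and 6. Near Slc16a1 the second library held 6 and the others 7, 7 and 7. Each stands out by 1 peak, because a single differing library in a group of 4 small whole numbers meets the criterion (Dixon's test at 95%). The usual chance rate of 1 in 20 groups does not apply to such small, tied whole numbers, and the rate here was not worked out. In all, 14 groups of a gene were large enough and varied.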

How the results depend on the processing

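The counts of genes called between ages in single cells were within 1.5 times of the reported count in 45 of 45 alternatives, while of 320 single-cell values of single genes 176 moved beyond their counting intervals and 144 did not. The ATAC-seq counts moved in 21 of 80. The share of all genes called higher under the same setting follows each count in parentheses. In adults 7 genes were called with all deposited peaks (26.7%) and 1 with brain alone (8.70%). At P6 1 was called with peaks of −log10 q of at least 5 (11.1%) and 1 with brain alone (9.39%). At E12 3 were called with all deposited peaks (11.2%), 2 per 10000 peaks of the list (4.12%) and 0 within 10 kb (2.90%). Against input 1 was called with all deposited peaks (4.66%), neither Slc7a5 nor Slc38a3, and 4 per 10000 peaks (22.2%), without Slc7a5. In the same comparison 0 were called with −log10 q of at least 5 (3.02%). With brain alone 0 were called, where the smallest possible exact permutation p is 0.1. Leaving out 1 library at a time gave 2 to 3 genes in adults, 2 to 3 at P6, 0 to 2 at E12 and 0 to 4 against input. At E12 0 were left without the first or the second brain library and 2 without the first trunk library. Against input, 0 were left without the first brain input, 1 without the second brain input or the first or the third retina endothelial library, and 4 without the first retina input. Of 640 ATAC-seq values of single genes, 548 kept their side of the threshold, 59 lost and 29 gained a call, and 4 reversed: Slc3a2 in adults with all deposited peaks (a difference of 2.12, exact permutation p = 0.0424), Slc38a3 in adults with all deposited peaks (6.75, exact permutation p = 0.00202) and within 10 kb (2.75, exact permutation p = 0.0141), and Slc7a5 against input with −log10 q of at least 5 (-1.50, exact permutation p = 0.33). The cause was not tested.

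Correlations between same-numbered libraries, of their deviations from group means, ran from -0.0921 to 0.0258 in adults and -0.211 to 0.176 at E12. They ran from -0.0879 to 0.0776 at P6, mostly positive, and -0.187 to 0.0489 between endothelium and input. At E12 brain and heart pairs were at 0.176, 0.0718 and 0.0513, and all pairs with trunk were negative. In groups of 2 the libraries deviate as mirror images, so values repeat. Whether same-numbered libraries belong together is not settled by these values. With the replicate number as a block 2 genes were called in adults (14.3% of all genes) and 2 at P6 (13.9%), and 0 at E12 (1.95%) and 0 against input (5.88%), where the smallest possible p rises to 0.037 and 0.0312.

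Region counts moved in 13 of 24 alternatives. With −log10 q of at least 5, of 174 regions near the genes, there were 2 barrier (1.15%, against 0.335% of all regions), 7 brain (4.02%, 1.87%) and 7 shared regions (4.02%, 3.97%) in adults, 2 brain (1.15%, 0.216%) and 16 shared (9.20%, 5.92%) at P6 and 19 shared (10.9%, 7.83%) at E12. With the same number of strongest peaks, of 111 regions, there were 1 barrier (0.901%, 0.352%), 6 brain (5.41%, 3.39%) and 11 shared (9.91%, 9.84%) in adults, 1 barrier (0.901%, 0.275%) and 9 shared (8.11%, 9.78%) at P6, and 0 brain (0.0%, 0.744%) and 13 shared (11.7%, 12.2%) at E12. Asking for a larger overlap with the peak could not change presence in endothelial libraries. Brain alone for regions, the erythroid list left aside and no limit on mitochondrial reads were chosen after seeing the data. The shortest list, of 19464 peaks from an adult lung library with 45389810 tags, set how many peaks of each adult library entered the test.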

Other observations

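Over the 5 single-cell libraries, 3538 genes reached 50 CPM in 1 library and a range of at least 1 on the log2 scale. By the root mean square difference of centred log2(CPM + 10) profiles, the genes most like Slc2a1 were Thbd (0.303), Gas6 (0.333), Isg15 (0.351), Ifi27 (0.353) and Cd200 (0.384). Thbd, which encodes the anticoagulant receptor thrombomodulin, stood at 6.78, 32.7, 30.1, 28.4 and 218.8 CPM from E9.5 to adult, so its adult level was also its highest by far. The genes most like Slc38a5 were Hbb-bt (0.26), Ccl21a (0.407), Slc40a1 (0.505), AU021092 (0.597) and Vwa1 (0.616). Hbb-bt encodes a haemoglobin chain of red blood cells and stood at 0.896, 256.7, 725.9, 987.6 and 294.8 CPM in endothelial barcodes, where haemoglobin UMIs made up 0.324%, 1.501%, 1.11%, 1.61% and 0.836% by age. Slc40a1 encodes the iron exporter ferroportin and stood at 3.74, 168, 419.9, 363 and 173.8 CPM. These likenesses rest on 5 points that share their libraries and depth, and they say nothing of shared function.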
